A study of Mus musculus with 12 samples.

Results

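The 9 genes described here are C1qa, C1qb and C1qc, which encode the 3 chains of complement component C1q, and Cx3cr1, P2ry12, Tmem119, Csf1r, Aif1 and Trem2, which mark microglia. They were taken by symbol from 56748 genes measured in mouse retina, all 9 were found, and each passed the filter on low values in every comparison. The study asked what loss of pyruvate kinase M2 (PKM2), a glycolytic enzyme, does to rod photoreceptors. RNA was sequenced from total retina (input) and from rods by translating ribosome affinity purification (Rod-TRAP), in which polyribosomes carrying an HA tag are pulled down. All mice were homozygous for Ribo-Tag, which adds the HA tag to ribosomes after Cre recombination, and all carried i75-Rod-Cre, in which a rod promoter drives Cre in rods. Control mice (Pkm2_Rodhet) had 1 floxed Pkm2 allele, so they were not free of deletion. In Pkm2_Rodko mice, called Rodko below, both alleles were floxed. The 12 libraries fall into control rods, Rodko rods, control retina and Rodko retina, with 3 libraries per group. The series description gives an age of 2 weeks and the methods give 2 months, and the age of these mice could not be settled. The tag and the deletion were thus directed to rods, and microglia were neither tagged nor deleted by design.

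Microglia are the resident macrophages of the retina. They arise from yolk sac precursors, live mainly in the plexiform layers, survey their surroundings with motile processes, and prune synapses and clear dying cells. C1q is the recognition part of the classical complement pathway: it binds antibody complexes, dying cells and synapses and, together with the proteases C1r and C1s, leads to cleavage of C4, C2 and C3. In the brain and retina microglia are a main source of C1q. Of the other genes, Csf1r encodes the receptor for the growth factors CSF1 and IL34 on which microglia depend, Cx3cr1 the receptor for the neuronal chemokine fractalkine, P2ry12 a purinergic receptor that steers processes towards ADP, Tmem119 a membrane protein used as a microglial marker, Aif1 the calcium-binding protein IBA1, and Trem2 a lipid-sensing receptor that signals through TYROBP.

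Library depth ranged from 13458890 to 22790072 reads on genes. Pkm, the targeted gene, had a mean deposited value of 52565 ± 1766 (SD, n = 3) in control rods against 22850 ± 795 in Rodko rods, and of 32324 ± 1664 in control retina against 20529 ± 552 in Rodko retina, with no overlap of libraries in either fraction. These reads count both isoforms of the gene. The 9 rod markers examined, Gnat1 among them, were all higher in rods than in retina. Control retina 2 stood apart for the genes described here: it was the lowest of the 3 control retinas for 8 of the 9 genes (88.9%, against 37.3% of all 19408 genes with a mean deposited value of at least 5). The genotype comparison of the 9 genes in retina is therefore also given without it, as are the medians of the related lists. Nothing in the labels says that libraries of a group came from separate mice, so that the p-values measure the spread between these libraries.

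Promoter sequence was examined because the C1q genes varied together between retina libraries, with the values given at the end. The 250 bases before the RefSeq transcription start (GRCm38.p6) were at hand for 6 of the 9 genes, namely Aif1, C1qb, C1qc, Cx3cr1, P2ry12 and Trem2. The letters GAGGAA, the core bound by PU.1 (encoded by Spi1, a transcription factor needed for macrophages and microglia), were searched on both strands. They were present before 4 of these 6 genes (Aif1, C1qb, C1qc and Trem2), and in 23.3% of 32851 such promoter windows. With the further microglial identity genes described below added to the 6, they were present in 10 of 22 windows. Those of the neighbouring genes C1qb and C1qc and that of Trem2 are shown, 5′ to 3′ in the direction of the gene, with GAGGAA or its reverse complement TTCCTC in capitals. The windows are chr4:136886201-136886450 on the minus strand for C1qb, chr4:136892915-136893164 on the minus strand for C1qc and chr17:48346151-48346400 on the plus strand for Trem2.
C1qb: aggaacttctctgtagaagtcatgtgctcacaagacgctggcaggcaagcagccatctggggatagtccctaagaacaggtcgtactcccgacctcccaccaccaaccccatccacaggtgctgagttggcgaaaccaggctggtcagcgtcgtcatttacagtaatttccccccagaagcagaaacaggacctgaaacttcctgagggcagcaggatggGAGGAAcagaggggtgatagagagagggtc
C1qc: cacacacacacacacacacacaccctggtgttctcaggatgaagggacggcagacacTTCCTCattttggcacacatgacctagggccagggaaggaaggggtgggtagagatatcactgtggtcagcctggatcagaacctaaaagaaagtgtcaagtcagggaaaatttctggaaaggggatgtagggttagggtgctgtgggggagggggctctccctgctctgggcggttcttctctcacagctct
Trem2: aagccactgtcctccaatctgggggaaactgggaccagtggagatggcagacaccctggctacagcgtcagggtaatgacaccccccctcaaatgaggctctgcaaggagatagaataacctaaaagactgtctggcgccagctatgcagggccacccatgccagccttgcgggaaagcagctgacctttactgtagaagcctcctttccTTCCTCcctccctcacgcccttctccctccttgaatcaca
The match began 30 bases before the start in C1qb, 193 before it in C1qc and 40 before it in Trem2, and in none of these windows did it share a base with the other letters searched. The RUNX letters TGTGGT were present in 2 of the 6 windows (C1qc and Cx3cr1) and in 14% of all windows. The letters TAATCC of the photoreceptor factor CRX were present in 0 of the 6 and in 6.25% of all windows. A match describes the letters only.

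In retina, the C1q genes were the most abundant of the 9 genes per unit length. Levels per length are given as TPM, computed here from reads and exon lengths with 1 total for all libraries. In control retina they were 33.8 ± 14.2 TPM (SD, n = 3) for C1qb, 33.4 ± 13.9 for C1qa and 14.9 ± 5.68 for C1qc, followed by 10.04 ± 3.23 for Csf1r, 4.78 ± 1.60 for Cx3cr1, 4.35 ± 1.59 for Tmem119, 3.34 ± 0.460 for P2ry12, 1.73 ± 0.418 for Trem2 and 1.47 ± 0.133 for Aif1. Of the neighbours in this order only P2ry12 and Trem2 had library ranges that did not overlap, although within a library C1qa was above C1qc, C1qc above Csf1r, and Csf1r above Cx3cr1 in 3 of 3 control retinas. In Rodko retina the first 4 places were the same, with 25.3 ± 3.86 for C1qb and 24.9 ± 0.838 for C1qa. Cx3cr1 and Tmem119, and Aif1 and Trem2, changed places with overlapping ranges.

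The 3 chains kept a narrow proportion. The level of C1qb per length was between 0.819 and 1.14 times that of C1qa over the 6 retina libraries, and C1qc was between 0.406 and 0.590 times C1qa. The C1q genes together took between 42.2% and 52.6% of the reads on the 9 genes in each retina library. In rods, where they rested on 19 to 58 reads per library, the ratio of C1qb to C1qa ranged from 1.04 to 3.51.

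Deposited values are reads divided by a size factor that was set within each fraction, so they compare libraries of 1 fraction only. C1qa (ENSMUSG00000036887) had deposited values of 236.7, 104.4 and 271.1 in control retinas 1, 2 and 3, and of 157.2, 145.6 and 144.1 in Rodko retinas 1, 2 and 3. C1qb (ENSMUSG00000036905) had 264.9, 107.6 and 276.2 in control retina and 187.8, 124.8 and 163.5 in Rodko retina. C1qc (ENSMUSG00000036896) had 178.2, 98.1 and 230.7 in control retina and 124.5, 132.0 and 157.8 in Rodko retina. For each of the 3 chains, control retina 2 was the lowest of all 6 libraries and the other control retinas the highest, so that the Rodko libraries lay inside the control range.

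Csf1r (ENSMUSG00000024621) had 406.2, 206.8 and 409.2 in control retina and 326.0, 274.0 and 316.7 in Rodko retina, again with control retina 2 lowest and the other control retinas highest. Cx3cr1 (ENSMUSG00000052336) had 178.2, 94.9 and 106.4 in control retina and 102.3, 95 and 102.9 in Rodko retina, so that control retina 1 alone was high. Tmem119 (ENSMUSG00000054675) had 80.8, 35.2 and 61.8 in control retina and 65.4, 47.9 and 61.7 in Rodko retina. For Tmem119 the Rodko values again lay inside the control range. P2ry12 (ENSMUSG00000036353) had 55.5, 40.5 and 53.2 in control retina and 65.4, 36.2 and 36.6 in Rodko retina, with the highest and the lowest library both from Rodko mice. Trem2 (ENSMUSG00000023992) had 56.5, 35.2 and 59.2 in control retina and 35.9, 27.1 and 28.6 in Rodko retina, and the groups overlapped only through control retina 2 and Rodko retina 1. Aif1 (ENSMUSG00000024397) had 14.6, 12.8 and 12 in control retina and 10.5, 14.5 and 6.9 in Rodko retina, with overlapping groups.

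**Figure D1:**
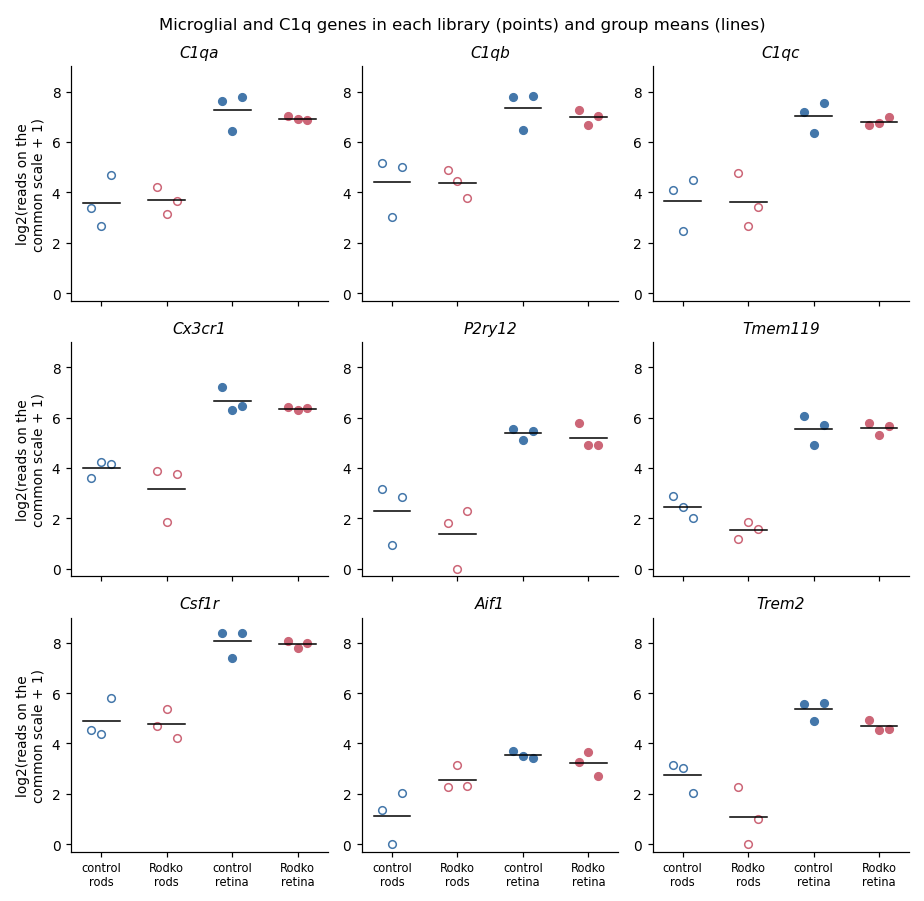
Level of each of the 9 genes in the 12 libraries, as log2(reads + 1) after scaling all libraries together (common scale). Points are libraries, lines group means, open points rods and filled points retina; all retina libraries lie above all rod libraries except for Aif1, where the groups overlap.

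Reads of the 9 genes were sparse in rods. The 9 genes together had 67 to 107 reads in each rod library (3.29 to 7.68 CPM) and 690 to 1725 in each retina library (41.3 to 85.1 CPM). The deposited values of C1qb were 28.2, 5.8 and 24.6 in control rods and 23.3, 17.2 and 10.3 in Rodko rods, and those of Csf1r were 17.9, 16.0 and 44.4 in control rods and 20.3, 33.2 and 14.3 in Rodko rods. These were the genes with the most reads in rods, and their groups overlapped. P2ry12 had no read in Rodko rods 2, Trem2 none in Rodko rods 2 and Aif1 none in control rods 2, where a count of 0 allows up to 3 reads (counting error only).

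To set rods against retina, the reads of all 12 libraries were brought to a common scale with TMM factors. On that scale C1qa had a mean of 12.8 ± 7.12 reads (SD, n = 6) in rods and of 144 ± 52.6 in retina, and Csf1r had 30.1 ± 14.8 in rods and 263 ± 64.6 in retina. For 8 of the 9 genes the highest rod library was below the lowest retina library. The exception was Aif1, whose highest rod library had 7.88 scaled reads and whose lowest retina library had 5.50.

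All 9 genes were lower in rods than in retina over both genotypes (limma on log2(scaled reads + 1), Benjamini-Hochberg adjusted p between 1.98e-08 and 0.00213), and so were 42.7% of the 25458 genes tested. The median difference of the 9 genes was -3.17 on the log2 scale, against -0.39 for all genes. The largest difference was that of Tmem119, at -3.58 (95% interval -4.20 to -2.95), and the smallest that of Aif1, at -1.53 (-2.35 to -0.72). Between these lay C1qa (-3.47), P2ry12 (-3.45), C1qc (-3.28), Csf1r (-3.17), Trem2 (-3.11), Cx3cr1 (-2.92) and C1qb (-2.79). Scaling by total reads moved the median of all genes to -0.74 and that of the 9 genes to -3.73, and every one of the 9 stayed lower in rods under each scaling tried. In control mice alone, 9 of 9 genes were lower in rods (35.7% of all genes), and in Rodko mice alone 8 of 9 (35.3% of all genes). Aif1 did not pass in Rodko mice, with a difference of -0.65 (95% interval -1.80 to 0.51, limma adjusted p = 0.320). In control mice it was -2.42 (adjusted p = 0.00119).

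As a share of its retina level on the common scale, the median of the 9 genes in rods was 11.4%, with a range from 6.86% for Tmem119 to 34.7% for Aif1. Summed over the 9 genes, rods held 9.65%, 11.2% and 13.6% of the level in the retina library with the same number in control mice, and 14.0%, 12.1% and 9.18% in Rodko mice, with no separation of the genotypes. Markers of other cells that lack the tag had medians near this: 12.8% for Müller glia, 11.6% for endothelial cells and pericytes, 10.1% for amacrine and ganglion cells, 9.88% for bipolar cells, 15.1% for red cells and 16.9% for the pigment epithelium. Rod markers had a median of 373%. Single markers of untagged cells spread more widely: 8.19% to 98.5% for bipolar cells and 4.84% to 64.9% for endothelial cells and pericytes. The ranges were 8.69% to 33.9% for amacrine and ganglion cells and 7.48% to 16.1% for Müller glia. Whether the few microglial reads in the pull-down came from rods or from untagged RNA was not tested.

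**Figure D2:**
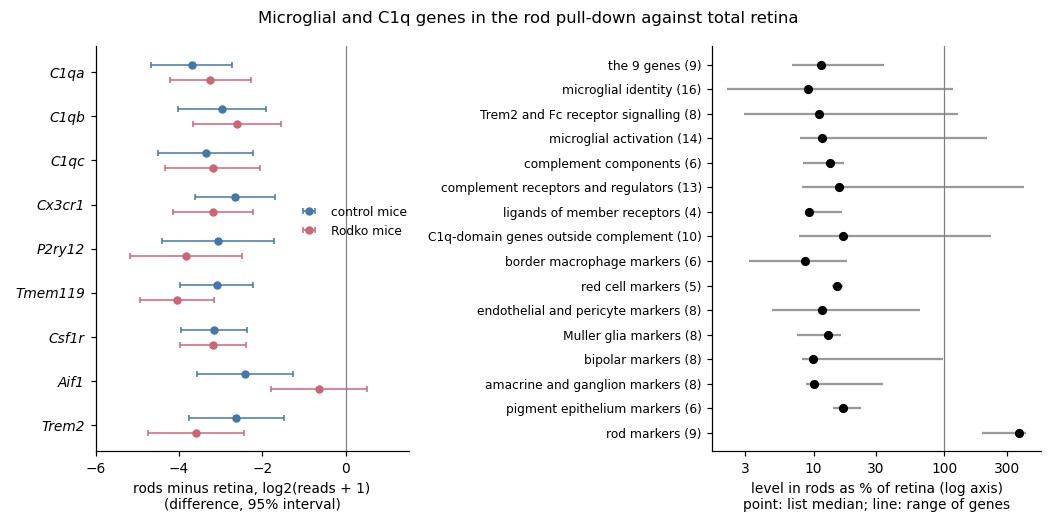
Left, rods minus retina for each of the 9 genes in control and Rodko mice, as a log2 difference on the common scale with its 95% interval; 9 of 9 and 8 of 9 intervals lie below 0. Right, level in rods as a percentage of retina (log axis) for each gene list, with the number of genes that had at least 60 reads in retina in brackets; the 9 genes have a median of 11.4% and rod markers one of 373%.

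Other microglial and complement genes were set against retina in the same way. The counts below stand beside 42.7% of all genes tested that were lower in rods. Of 18 further microglial identity genes, 16 were lower in rods, with a median share of 9.0%. Ctss, a lysosomal protease, differed by -4.03, and Siglech, a sialic acid-binding lectin of microglia, by -3.87. Of 17 activation genes, 14 were lower, with a median of -2.62, and 2 were higher, the lysosomal proteases Ctsb (1.09) and Ctsd (0.43). Of 9 genes of Trem2 and Fc receptor signalling, 8 were lower, among them Tyrobp, the adaptor of TREM2 (-3.00), and Fcgr2b, an inhibitory Fc receptor (-3.90). Inpp5d, a lipid phosphatase of the same pathway, did not pass, at 0.33 (adjusted p = 0.129). Of 9 complement components tested, 7 were lower in rods, including C3, the central component (-3.40), and C4b (-3.63). Of 15 complement receptors and regulators, 12 were lower, such as Cfi (-3.02), and 3 were higher, of which Vtn, encoding vitronectin, had the highest difference (2.02). Ligands of the receptors among the 9 genes were lower in rods as well, with Cx3cl1 at -3.60, Csf1 at -3.48 and Il34 at -2.58.

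In the comparison of genotypes in retina, no gene of the 9 passed the adjusted threshold (0 of 9 by limma, edgeR and DESeq2 alike), where 1 of 25590 genes did (0.00391%). At an unadjusted p under 0.05 there was 1 of the 9, Trem2, and there were 1069 of the 25590 genes. Its deposited values averaged 50.3 ± 13.1 (SD, n = 3) in control and 30.5 ± 4.71 in Rodko retina, a difference of -0.68 on the log2(value + 1) scale (95% interval -1.28 to -0.07, limma adjusted p = 0.947). The other 8 ranged from -0.34 for C1qb (-0.98 to 0.29) to 0.04 for Tmem119 (-0.58 to 0.67). C1qa differed by -0.34 (-0.93 to 0.25), C1qc by -0.21 (-0.75 to 0.33), Cx3cr1 by -0.28 (-0.75 to 0.19), P2ry12 by -0.15 (-0.75 to 0.45), Csf1r by -0.09 (-0.55 to 0.37) and Aif1 by -0.33 (-1.21 to 0.55). Thus 8 of 9 were below 0 with a median of -0.28, while the median of all genes was -0.0045. Markers of most other cells without the tag were likewise mostly below 0 in Rodko retina, with no call. They were below 0 for 8 of 8 Müller glia markers (median -0.16), 8 of 8 bipolar markers (median -0.18) and 8 of 8 endothelial and pericyte markers (median -0.13). Amacrine and ganglion markers were below 0 in 7 of 8 (median -0.047) and red cell markers in 4 of 5 (median -0.26). Pigment epithelium markers went the other way, with 4 of 6 above 0 (median 0.48), and 1 of 9 rod markers was below 0 (median 0.092). Their part in the difference of the 9 genes was not tested. None of the 9 had control and Rodko libraries that did not overlap, which 9.29% of all genes had. The interval of each of the 9 genes contained a difference of -0.5.

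This comparison turned on which control retina was included. Control retina 2 had a median of 0.507 times the mean of control retinas 1 and 3 over the 9 genes, 0.694 times over the other microglial identity genes and 0.610 times over activation genes. In the same library the 6 pigment epithelium markers had a median of 0.237 times the other controls (lowest of the 3 in 6 of 6), Müller glia markers 0.853, endothelial and pericyte markers 0.943, rod markers 1.20 and all genes 0.996. The part of pigment epithelium content in the level of the 9 genes was not tested. Without control retina 2, the median of the 9 differences was -0.46, all 9 were below 0 and 0 of 9 passed, with the smallest adjusted p at 0.234 for C1qa (-0.76). Without control retina 1 the median was -0.13, and without control retina 3 it was -0.097, with 7 and 6 of the 9 below 0. Fewer microglia and less of these RNAs per cell cannot be told apart in bulk libraries.

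**Figure D3:**
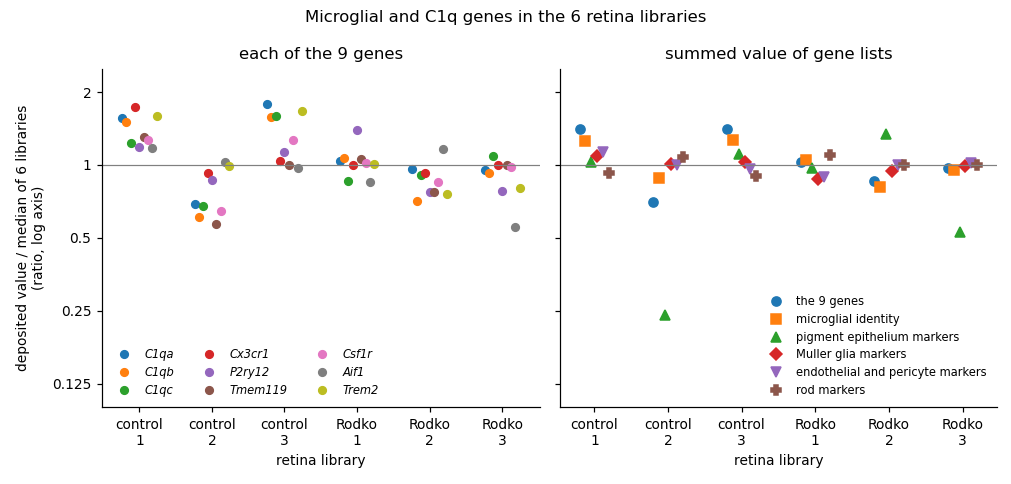
Deposited value in each of the 6 retina libraries divided by the median of the 6 (ratio, log axis), for each of the 9 genes (left) and for the summed value of gene lists (right). Control retina 2 has the lowest summed value of the 9 genes (0.703 times the median) and of the pigment epithelium markers (0.240 times), while Rodko retina 3 is low for pigment epithelium (0.529 times) with the 9 genes at 0.973 times.

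The rod library with the same number was less uniform. Control rods 2 had the lowest value of the 6 rod libraries for 4 of the 9 genes and the highest for 1, Cx3cr1, with a median of 0.512 times the median rod library. Rodko rods 2 was the lowest for 3 and the highest for 1. The other microglial identity genes summed in control rods 2 to 0.982 times the median rod library. Its pigment epithelium markers summed to 203.5, against 312.1 to 940.4 in the other 5 rod libraries. Rod and retina libraries with the same number deviated together over all genes, so the rod and retina values of a number are not independent.

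In rods, no gene of the 9 passed in the comparison of genotypes either (0 of 9 by limma, edgeR and DESeq2), where 4 of 20658 genes did (0.0194%). Trem2 had deposited values of 6.4, 5.8 and 2.5 in control rods, from 5, 8 and 2 reads, and of 3.0, 0 and 0.8 in Rodko rods, from 3, 0 and 1 reads. Its difference was -1.54 on the log2(value + 1) scale (95% interval -2.96 to -0.11, limma adjusted p = 0.932), with Rodko rods 1 above control rods 3. Aif1 went the other way, with 1.3, 0 and 2.5 in control rods and 3.0, 6.4 and 3.2 in Rodko rods, or 0 to 2 reads against 3 to 6. Its libraries did not overlap, as was so for 9.89% of all genes, and its difference was 1.32 (-0.07 to 2.70, limma adjusted p = 0.932).

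Tmem119 was the other gene whose rod libraries did not overlap, with 5.1, 3.6 and 2.5 in control rods and 1.0, 2.1 and 1.6 in Rodko rods. Its difference was -0.87 (95% interval -2.08 to 0.34). These values came from 4, 5 and 2 reads in control rods and 1, 2 and 2 in Rodko rods. Control rods 3 and Rodko rods 2 and 3 thus had 2 reads each and were apart only after division by size factors. Cx3cr1, at -0.80 (-1.99 to 0.38), and P2ry12, at -0.85 (-2.47 to 0.76), had overlapping libraries. Markers of other cells without the tag were also mostly below 0 in Rodko rods, with no call. Of Müller glia markers 8 of 8 were below 0 (median -0.38, 3 with libraries apart), of bipolar markers 7 of 8 (median -0.49, 5 with libraries apart, against 9.89% of all genes), of amacrine and ganglion markers 7 of 8 (median -0.29) and of red cell markers 5 of 5 (median -0.73). It was less marked for endothelial and pericyte markers, with 5 of 8 below 0 (median -0.28), and for pigment epithelium markers, with 4 of 6 (median -0.084). Of the 14 microglial identity genes tested in rods 11 were below 0 (median -0.37), and of 9 rod markers 1 was (median 0.060). The part of untagged RNA in these differences was not tested. The C1q genes and Csf1r lay between -0.13 and 0.09, with intervals that reached over 0.8 to either side of 0. The sign of each of these 4 depended on the library left out: leaving out control rods 3 turned the median of the 9 genes from -0.13 to 0.28, and leaving out Rodko rods 3 turned it to 0.048. Without control rods 2 the median was -0.68, without Rodko rods 1 it was -0.61 and without control rods 1 it was -0.31.

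**Figure D4:**
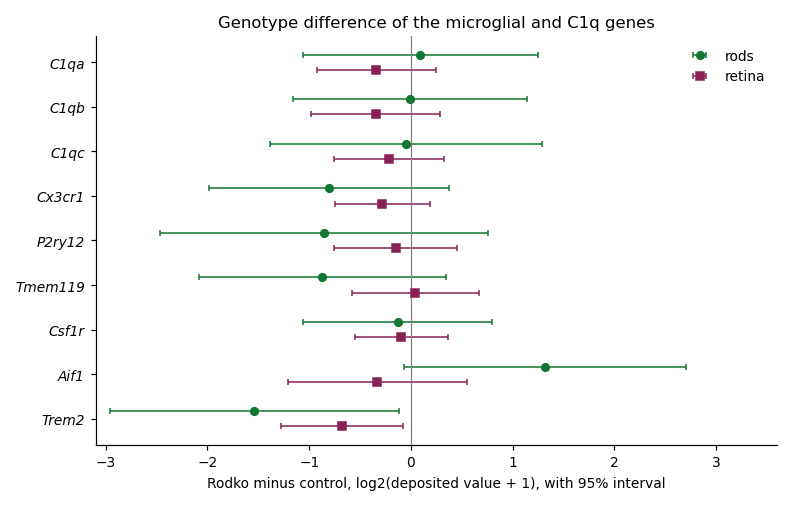
Rodko minus control for each of the 9 genes as a difference of log2(deposited value + 1), with its 95% interval, in rods (circles) and in retina (squares). All intervals contain 0 except those of Trem2, which end at -0.11 in rods and -0.07 in retina, before adjustment over all genes.

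The genotype difference of rods was set against that of retina in the fit of all 12 libraries. Of the 9 genes 0 passed, as did 0% of the 25458 genes by limma, of which 1124 had an unadjusted p under 0.05 (edgeR called 0 genes and DESeq2 1 gene that was not among the 9). Aif1 differed most, at 1.77 (95% interval 0.14 to 3.41, limma adjusted p = 0.978), and leaving out control rods 2 brought it to 1.21. For Trem2 the rod and retina differences were not shown to be unequal, at -0.97 (-2.59 to 0.65).

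The lists of related genes showed the same absence of calls between genotypes. No gene of the 7 lists passed in rods or in retina. Where retina libraries of single genes in these lists are described as apart, this was so for 9.29% of all genes. It held for 3 of 18 identity genes. Of the 18 microglial identity genes in retina, 14 were below 0 with a median of -0.27. Spi1, which encodes PU.1, had deposited values of 14.6, 10.7 and 18.9 in control retina and 7.4, 0.9 and 2.3 in Rodko retina, from 1 to 22 reads, and its libraries did not overlap (difference -2.04, 95% interval -3.28 to -0.80, limma adjusted p = 0.947). Slc2a5, a fructose transporter of microglia, had 7.8, 11.7 and 3.4 in control retina against 2.1, 1.8 and 2.3 in Rodko retina (difference -1.37). These came from 8, 11 and 4 reads against 2 in each Rodko library. Siglech differed by -0.41 and likewise had libraries apart. Without control retina 2 the identity median was -0.41, with 17 of 18 below 0. Of 17 activation genes tested, all 17 were below 0 in retina with a median of -0.30, and 3 of 17 had libraries apart (9.29% of all genes): Itgax, an integrin (-1.03), Lpl, a lipoprotein lipase (-0.30), and Cd9, a tetraspanin (-0.30). Itgax had 8, 6 and 12 reads in control retina and 2, 6 and 3 in Rodko retina. Control retina 2 and Rodko retina 2, with 6 reads each, were apart for Itgax only after division by size factors. Lpl and Cd9 are also made by other retinal cells. Without control retina 2 the activation median was -0.53, with 17 of 17 below 0, and without control retina 3 it was -0.044, with 10 genes below 0 of 16 tested. Apoe, an apolipoprotein shared with Müller glia, differed by -0.07.

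Of the 9 genes of Trem2 and Fc receptor signalling, 5 were below 0 in retina with a median of -0.050. Tyrobp, the partner of Trem2, had 103.2, 39.4 and 101.2 in control retina and 52.7, 42.5 and 52.6 in Rodko retina, a difference of -0.59 (95% interval -1.29 to 0.11), with control retina 2 below every Rodko library. Of the complement components downstream of C1q, 6 of 9 tested were below 0 with a median of -0.23, C3 differed by -0.15 (-0.64 to 0.34) and C4b by -0.24 (-1.11 to 0.63). C4b also varied between the control libraries, with 642.9, 171.6 and 800.3 in control retinas 1, 2 and 3. Among 15 receptors and regulators 9 were below 0, with Cfi, the protease that inactivates C3b, at -0.63 and C5ar1, a receptor for C5a, at 0.98, both with libraries apart and neither called (limma adjusted p = 0.947). Vtn was at 0.11 with its libraries apart as well, making 3 of 15 against 9.29% of all genes. Without control retina 2 the median was -0.15 for Trem2 and Fc receptor signalling, -0.65 for complement components and -0.36 for receptors and regulators. The ligands were close to level between genotypes in retina, with Cx3cl1 at -0.02 (-0.19 to 0.14), Csf1 at -0.17 (-0.59 to 0.26) and Il34 at -0.25 (-0.58 to 0.08).

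Genes whose proteins share the C1q domain but are not chains of C1q were examined for contrast. Of 11 tested in retina, 7 were above 0 and 4 below, with a median of 0.030. Cbln1, a secreted synapse organiser, was at -0.25 and Cbln4 at -0.20, both with libraries apart (2 of 11, against 9.29% of all genes) and neither called. In rods against retina, 8 of the 11 were lower and 1 was higher, with a median of -2.47. The higher gene was C1ql3, another secreted synaptic protein, at 1.19 on the log2 scale. In control retina 2 the C1q-domain genes had a median of 0.983 times the other control retinas, where the C1q chains and microglial genes had 0.507 times.

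Of the other immune cells, blood leukocytes had low marker values. Of 7 blood leukocyte markers, Ccr2, a receptor of monocytes, was between 0 and 1.1 in deposited value and Cd3e, of T cells, between 0 and 1.1 in every retina library, and the 7 summed to 5.8 to 34.3 in retina and 0 to 4.8 in rods. The 7 border macrophage markers summed to 277.1 to 363.3 in control and 220.6 to 323.7 in Rodko retina, most of it from Lyve1 at 164.6 to 269.8, which lymphatic endothelium also makes. Between genotypes in retina, 5 of these 7 were below 0 with a median of -1.002, and none was called. Mrc1, the mannose receptor, had deposited values of 24.4, 14.9 and 18.9 in control retina and 12.7, 9.9 and 5.7 in Rodko retina (difference -1.002, limma adjusted p = 0.947). Its libraries did not overlap, as was so for 9.29% of all genes. Their part in the values of the 9 genes was not tested.

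Finally, the 9 genes were compared with each other over the 6 retina libraries after removal of each genotype's mean. Of their 36 pairs, 31 had a Pearson r above 0, with a median of 0.652 and a range from -0.227 to 0.989. The 3 pairs of C1q genes had r between 0.861 and 0.947 (n = 6 libraries, which share a size factor and the low control retina 2). The genes outside all lists whose pattern was most like the mean of the 9 were Baiap2l1 (r = 0.999), Rps6ka1 (0.999), Rab21 (0.998), Rps19 (0.997), Lcp1 (0.997), Cercam (0.997), Wipf2 (0.997), Rpsa-ps2 (0.996), Ndufc2 (0.996) and Acadsb (0.996). Of these Lcp1, which encodes an actin-bundling protein of leukocytes, and Cercam were also low in rods, at 7.81% and 8.54% of retina. Rps6ka1 was at 25.6%, and the others lay between 75.3% (Rab21) and 157% (Ndufc2). With 6 libraries, 620 of 17405 genes had an r above 0.9, so that such values were common.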

How the data were processed

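The authors deposited 1 signal per gene and library, reads on the gene over the library's size factor, kept to 1 decimal. Their processing notes name CASAVA 1.8.2, HISAT2, DESeq2, edgeR and GRCm39. The counter, the annotation and the use of strand are not given in the sources used here, so reads of overlapping or antisense genes could be shared. Dividing by the value of 1 read gave whole reads for 100% of positive values under 1000 in every library (tolerance 0.06 in value), and the size factors equalled the median-of-ratios within each fraction of 6 libraries.

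Genotypes were compared in each fraction with limma 3.58.1 (R 4.3.3, variance trend) on log2(deposited value + 1), over genes with a mean of at least 1 in 1 genotype. Folds on this scale understate the change of low genes. Rods were compared with retina, and genotype effects between fractions, in 1 limma fit of 4 group means on log2(TMM-scaled reads + 1). P-values were adjusted over all genes by the Benjamini-Hochberg method at 0.05. Scripts were tested on simulated data. As alternatives, the recovered reads were tested with edgeR 4.0.16 and with DESeq2 1.42.0. Exon lengths came from GENCODE vM21 by identifier and served only for levels per length, and promoters from RefSeq. Proteins and gene coordinates of GRCm39 were not used here.

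Replicate numbers paired rods with retina, given in the labels as RNA after and before TRAP: same-numbered deviations correlated at r = 0.227 to 0.464 over 14100 genes, and differently numbered ones at -0.399 to -0.063. The mean of each group was removed first, so the negative values follow in part from the positive ones. The numbers did not pair genotypes. No libraries agreed within sampling noise (lowest chi-square per degree of freedom 6.62).

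The 9 genes and all lists were chosen with earlier results of these data known. Genes named from the 7 pathway lists were those with an adjusted p under 0.05 between genotypes, up to 4 per list whose libraries did not overlap between genotypes in retina, the highest and lowest by rods minus retina, and a few named in advance (Tyrobp, Csf1, Il34, Cx3cl1, C3, C4b, Apoe, Pkm and Gnat1). Some of the genes this rule names are not reported here.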

Additional observations from a re-analysis of the deposited data

How the results depend on the processing

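Counts of the 9 genes called were unchanged (9, 9, 8, 0, 0 and 0 over the 6 comparisons) under other scalings, edgeR, DESeq2, a pseudocount of 0.1, other filters and each library left out, except that requiring 10 reads in every library left 1 gene tested, Csf1r, and so 1 called in rods against retina over both genotypes, 1 in control mice and 1 in Rodko mice. The replicate block changed none of these counts: 9 genes over both genotypes remained lower in rods. In the fit of both fractions this block paired rods with retina by number. In the genotype comparisons it paired control with Rodko libraries by number, although the numbers did not pair genotypes. Leaving out control replicate 2 in both fractions, chosen after seeing the data, gave 9, 9, 8 and 0 in the fit of both fractions.

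Directions near 0 turned between settings without a call. In rods, C1qa went from 0.09 to -0.0015 with edgeR and TMM, -0.0088 with edgeR and RLE and -0.043 with DESeq2, C1qc to 0.071, 0.063 and 0.023, and C1qb to 0.0099 with the pseudocount of 0.1. In retina, Tmem119 went to -0.042, -0.032 and -0.030 with edgeR and TMM, edgeR and RLE and DESeq2. The cause was not tested. With 1 library left out, the rod differences ranged from -0.34 to 0.62 for C1qa, -0.68 to 0.37 for C1qb, -0.64 to 0.42 for C1qc and -0.44 to 0.32 for Csf1r, and the retina differences from -0.56 to 0.055 for C1qc, -0.28 to 0.30 for Tmem119 and -0.42 to 0.072 for Csf1r. Over all genes, calls between genotypes ranged from 2 to 17 in rods and from 0 to 4 in retina. In rods there were 4 in the main test, 17 in 1 fit of 12 libraries and 8 with the replicate block, which there paired genotypes by number. Each of the 9 genes had at most 36 reads in a rod library.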
